A study of Mus musculus with 196 samples.

Results

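The genes described here are the Wnt ligands, their Frizzled receptors with the co-receptors Lrp5 and Lrp6, the secreted modulators Sfrp, Dkk and Rspo, and Axin2. They were taken by symbol, as those starting with Wnt, Fzd, Sfrp, Dkk or Rspo and a digit together with Lrp5, Lrp6 and Axin2, which gave 45 of the 18820 genes measured. The 45 were 19 ligands, 12 receptors and co-receptors, 4 Sfrp genes, 4 Dkk genes, 4 Rspo genes, Axin2 and Fzd10os, a noncoding transcript from the strand opposite Fzd10 that the symbol rule also took. Each had 1 probe set.

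Wnt ligands are secreted lipid-modified proteins that bind Frizzled receptors and, for signalling through beta-catenin, Lrp5 or Lrp6. Sfrp proteins bind the ligands in the extracellular space, Dkk1 binds the Lrp co-receptors and blocks them, and R-spondins keep Frizzled receptors at the cell surface through Lgr receptors. Axin2 is part of the complex that degrades beta-catenin and is itself a common target of the pathway. In skin the pathway is known for starting hair follicles, for the return of resting follicles to growth and for the renewal of interfollicular epidermis.

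Expression was measured in untreated skin of 100 mice aged 8 weeks. The mice came from a backcross: FVB/N females were bred to male Mus spretus, and the F1 daughters to FVB/N males. Each animal therefore carries its own mix of FVB/N and Mus spretus alleles; arrays of the parental strains are not analysed here. Dorsal skin was labelled non-anagen in 85 arrays (41 females, 44 males) and anagen (with hair follicles in growth) in 14 (8 females, 6 males), and tail skin was on 97 arrays (48 females, 49 males). Values are log2 expression from RMA, on which 1 unit is 2-fold, and a gene was called at a limma adjusted p under 0.05 over all genes.

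The groups did not differ only in tissue. All dorsal arrays were in batches 1 and 2 and all tail arrays in batches 3 and 4, and tissue and batch therefore cannot be told apart. Markers of the basal epidermis averaged 10.98, 10.90 and 11.11 in non-anagen dorsal, anagen dorsal and tail skin. The inner root sheath markers, which mark growing follicles, averaged 5.09, 8.53 and 8.45, and 3 of the 14 anagen arrays lay inside the non-anagen range, which ended at 6.11. In tail against non-anagen dorsal skin 87.1% of all genes were called. Smooth muscle markers were all lower in tail skin (6 of 6 called, means 9.19 and 6.61). Skeletal muscle markers were lower too (10 of 10, 7.59 and 5.73), as were 5 of 6 endothelium markers (7.41 and 7.05). Of the tendon and cartilage markers 6 of 8 were higher (5.79 and 7.42) and 2 lower. Hair follicle stem cell markers were lower in 9 of 10 and higher in 1. Macrophage and T cell markers were lower in 5 of 7 and higher in 2, while 5 of 5 melanocyte and 7 of 7 mitotic markers were higher. The part of these cell types in the tail differences below was not tested, and in whole skin fewer cells of a type and less RNA per cell cannot be told apart. By their correlation with the group's median profile, 5 tail arrays and 1 non-anagen array stood apart.

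The promoters of 5 members that the results turn on are shown first, because 4 of them were called in the anagen comparison and Wnt4 separates the tissues. They are RefSeq windows on GRCm38.p6, from 250 bases before the start to 30 after it, with capitals marking a core motif of the TCF and LEF factors through which beta-catenin acts (CTTTGAA, with its variants CTTTGAT, further CTTTGTA, and lastly CTTTGTT, on either strand; none overlapped another).
Wnt11 (chr7:98834862-98835141, plus strand): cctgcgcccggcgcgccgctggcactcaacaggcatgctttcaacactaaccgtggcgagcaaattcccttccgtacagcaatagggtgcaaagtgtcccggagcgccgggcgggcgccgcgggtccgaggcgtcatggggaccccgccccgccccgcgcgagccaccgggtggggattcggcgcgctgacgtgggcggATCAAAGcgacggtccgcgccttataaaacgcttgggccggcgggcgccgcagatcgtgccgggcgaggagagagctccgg
Fzd5 (chr1:64737721-64738000, minus strand): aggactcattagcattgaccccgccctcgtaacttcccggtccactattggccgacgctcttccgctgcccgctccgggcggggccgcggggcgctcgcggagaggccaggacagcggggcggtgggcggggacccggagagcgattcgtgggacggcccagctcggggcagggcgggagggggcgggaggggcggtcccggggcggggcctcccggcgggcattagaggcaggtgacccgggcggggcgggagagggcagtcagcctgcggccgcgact
Wnt3 (chr11:103773925-103774204, plus strand): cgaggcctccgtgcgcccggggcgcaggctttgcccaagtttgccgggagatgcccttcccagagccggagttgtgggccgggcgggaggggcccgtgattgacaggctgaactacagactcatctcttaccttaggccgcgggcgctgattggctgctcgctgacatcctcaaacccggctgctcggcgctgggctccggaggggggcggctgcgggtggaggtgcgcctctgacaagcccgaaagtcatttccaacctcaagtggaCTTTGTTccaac
Axin2 (chr11:108920099-108920378, plus strand): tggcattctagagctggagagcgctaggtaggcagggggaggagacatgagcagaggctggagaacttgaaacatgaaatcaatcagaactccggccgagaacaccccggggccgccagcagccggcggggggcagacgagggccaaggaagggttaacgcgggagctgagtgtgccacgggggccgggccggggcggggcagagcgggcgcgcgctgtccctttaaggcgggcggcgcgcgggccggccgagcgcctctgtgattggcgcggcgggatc
Wnt4 (chr4:137277385-137277664, plus strand): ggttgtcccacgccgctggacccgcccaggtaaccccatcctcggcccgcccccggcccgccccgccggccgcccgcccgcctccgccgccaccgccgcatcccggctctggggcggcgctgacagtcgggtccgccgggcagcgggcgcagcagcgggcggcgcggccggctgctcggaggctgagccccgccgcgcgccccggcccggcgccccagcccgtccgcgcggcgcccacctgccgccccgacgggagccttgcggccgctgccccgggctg
The search window ran to 50 bases after the start. Of the 45 members, 28 had a window, and 5 of the 28 (Wnt11, Wnt3, Wnt5b, Fzd7 and Dkk1) held a motif. By window this was 5 of 31, beside 16.9% of all 32851 windows. The windows of Fzd5, Axin2 and Wnt4 did not hold these letters, and the second window of Wnt11 did not either.

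Tail skin and non-anagen dorsal skin differed most in 2 secreted Wnt inhibitors and 1 ligand. Sfrp4, Wnt4 and Sfrp2 were higher in tail skin by at least 2-fold and the receptor Fzd2 was lower, so 4 of 45 members passed both thresholds, beside 5.96% of all genes. At any size 18 members were higher in tail skin and 18 lower, beside 87.1% of all genes called, so a call at any size says little about a member. The median difference was 0.05 over the members and -0.00049 over all genes. Setting every array to the same median moved the tail minus dorsal difference of all genes down, by a median of -0.21, and gave 12 members higher and 28 lower.

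**Figure D1:**
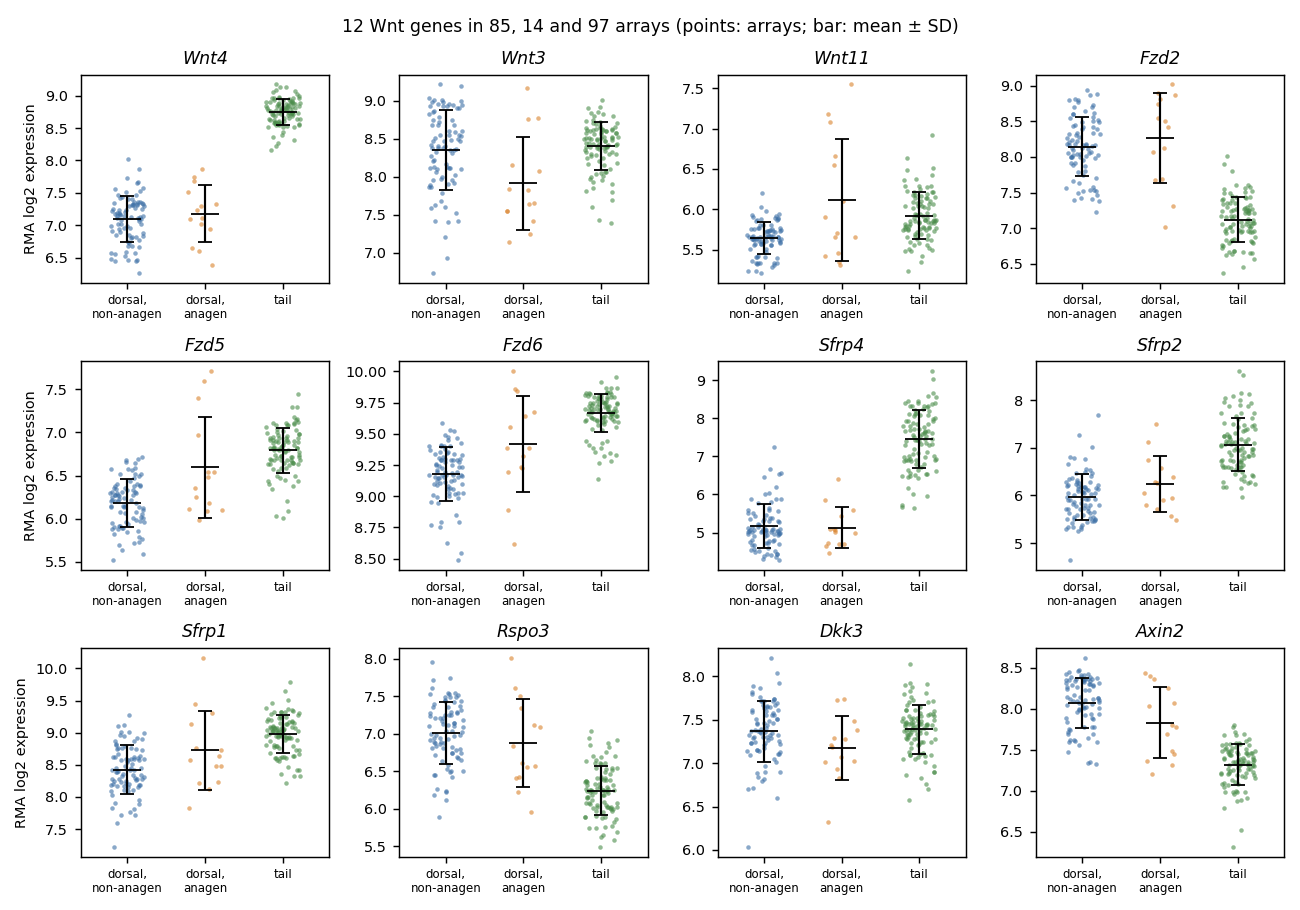
RMA log2 expression of 12 members in each array of non-anagen dorsal (85), anagen dorsal (14) and tail skin (97), with bars for the mean and SD. Every tail array lies above every non-anagen array for Wnt4. Below every non-anagen array lie 59 of the 97 tail arrays for Fzd2 and 44 for Axin2.

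Among the ligands, Wnt4, which acts in epithelia and in the development of the kidney and female reproductive tract, had the clearest separation. Its lowest, median and highest values were 6.26, 7.14 and 8.03 in non-anagen dorsal skin, 6.39, 7.18 and 7.88 in anagen dorsal skin and 8.16, 8.77 and 9.18 in tail skin. All 97 tail arrays were above all 85 non-anagen arrays, and the tail was higher in 82 of 82 mice with both tissues. The share of all genes with such a separation was not counted, so it cannot be called particular to Wnt4. The same holds for the counts of arrays beyond the non-anagen range given for other members. The difference was 1.66 ± 0.04 (SE), or 3.15-fold, with a limma adjusted p of 2.13e-90. Against anagen dorsal skin it was 1.57 ± 0.08 (limma adjusted p = 3.9e-43).

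Other ligands moved by less than 2-fold. Wnt5b, a ligand that signals largely without beta-catenin, was higher in tail skin by 0.66 ± 0.04 (limma adjusted p = 7.84e-40), with 60 of 97 tails above every non-anagen array. Wnt10b, a ligand of growing follicles, was higher by 0.43 ± 0.05. Wnt10a, expressed in epidermis and follicles, was lower, with lowest, median and highest values of 7.35, 8.12 and 8.78 in non-anagen dorsal and 6.82, 7.66 and 8.02 in tail skin and a difference of -0.45 ± 0.04 (limma adjusted p = 2.42e-23). Wnt3, which signals through beta-catenin, did not pass the test (0.05 ± 0.07, limma adjusted p = 0.451). The direction of Wnt5a, a ligand of the dermal papilla and dermis, depended on the scaling: it was 0.21 as deposited and -0.032 after quantile normalization over all arrays.

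The other ligands differed less. Wnt11, Wnt3a, Wnt16 and Wnt8a were higher in tail skin, with differences from 0.11 to 0.28. Wnt11 missed the threshold with arrays set to the same median. The differences of Wnt3a, Wnt16 and Wnt8a were smaller in size than the median shift of all genes in that setting (-0.21). Their direction with arrays set to the same median was not checked, so it is not settled. Wnt1, Wnt6, Wnt7a, Wnt7b, Wnt8b and Wnt9b were lower, with differences from -0.38 to -0.14. Wnt2, Wnt2b and Wnt9a did not pass the test.

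Of the ligands, 14 of 19 lay below the median of all gene means (6.49) in every group, beside 8788 of all 18820 genes. Y-linked transcripts in females, which have none, read 3.20 to 4.20 on average in tail skin and 3.38 to 4.66 in dorsal skin. The tail means of Wnt1 and Wnt8b lay inside the tail range. Their non-anagen dorsal means lay inside the dorsal range, as did those of Wnt7a (4.54), Wnt8a (4.51), Dkk1 (4.61) and Dkk4 (4.54). The tail differences of these genes are differences near the background of the arrays, which itself read lower in tail skin.

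Among the receptors, Fzd2, which is expressed in mesenchyme and responds to Wnt5a, was the member lowest in tail skin relative to dorsal skin. Its lowest, median and highest values were 7.23, 8.17 and 8.93 in non-anagen dorsal, 7.02, 8.46 and 9.03 in anagen dorsal and 6.37, 7.12 and 8.01 in tail skin. The groups overlapped, but 59 of 97 tails were below every non-anagen array and the tail was lower in 79 of 82 mice. The difference was -1.02 ± 0.06 (SE; limma adjusted p = 4.3e-42), and against anagen dorsal skin -1.15 ± 0.11. Fzd3, a receptor of planar polarity and axon guidance, was lower too (-0.69 ± 0.04, limma adjusted p = 1.77e-37).

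Fzd6, the receptor that orients hair follicles through planar polarity, went the other way. Its values were 8.49, 9.19 and 9.59 (lowest, median, highest) in non-anagen dorsal and 9.14, 9.69 and 9.96 in tail skin, with 79 of 97 tails above every non-anagen array. The difference was 0.48 ± 0.03 (SE; limma adjusted p = 1.13e-36). Fzd5 was higher by 0.61 ± 0.04, with 64 tails above every non-anagen array, and the co-receptor Lrp5 by 0.44 ± 0.03. Lrp6, the other co-receptor, stayed within 8.58 to 9.39 in non-anagen dorsal and 8.79 to 9.40 in tail skin. Its difference of 0.10 turned to -0.10 when arrays were set to the same median and to -0.13 after quantile normalization, so it has no settled direction. Fzd8 was higher by 0.33, Fzd7 and Fzd9 were lower (-0.32 and -0.09), and Fzd1 and Fzd4 did not pass the test.

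The Sfrp genes did not move as a group: Sfrp4, Sfrp2 and Sfrp1 were higher in tail skin and Sfrp5 was lower. Sfrp4 had the largest difference of all members. Its lowest, median and highest values were 4.28, 5.05 and 7.23 in non-anagen dorsal, 4.47, 5.04 and 6.40 in anagen dorsal and 5.65, 7.53 and 9.24 in tail skin, so dorsal arrays sat low with a few reaching the tail range. The tail was higher in 81 of 82 mice, by 2.28 ± 0.09 (SE) or 4.87-fold (limma adjusted p = 2.12e-59). Against anagen skin the difference was 2.35 ± 0.18.

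Sfrp2, a modulator made by fibroblasts, read 4.64, 5.93 and 7.69 (lowest, median, highest) in non-anagen dorsal and 5.97, 6.99 and 8.61 in tail skin. It was higher in the tail of 74 of 82 mice, by 1.10 ± 0.07 (limma adjusted p = 1.56e-33). This fell under 2-fold, to 0.89 and 0.93, with arrays set to the same median or quantile normalized. Sfrp1 was higher by 0.55 ± 0.05, and Sfrp5 lower, at -0.38 ± 0.05.

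The Dkk genes hardly separated tail from non-anagen dorsal skin in the values as deposited. Dkk2 read 7.50 ± 0.49 (SD, n = 85) in non-anagen dorsal and 7.55 ± 0.26 (SD, n = 97) in tail skin. Dkk3, a divergent family member, read 7.37 ± 0.35 and 7.39 ± 0.28. Neither passed the test (limma adjusted p = 0.362 and 0.648). Both differences are smaller than the shift of all genes with arrays set to the same median (-0.21). Against anagen dorsal skin, where Dkk2 averaged 7.26 and Dkk3 7.18, both were called higher in tail skin, but not in the paired differences within each mouse. Dkk1 and Dkk4 were lower, with differences of -0.13 and -0.13, and both lay below the median of all gene means in every group. Their non-anagen dorsal means lay inside the dorsal range of Y-linked transcripts in females.

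Of the R-spondins, 3 of 4 were called lower in tail skin, beside 8167 of all 18820 genes called lower. Rspo3, which acts in vessels and dermis, read 5.88, 7.04 and 7.96 (lowest, median, highest) in non-anagen dorsal and 5.49, 6.24 and 7.04 in tail skin, and was lower in the tail of 75 of 82 mice. Its difference was -0.78 ± 0.06 (SE; limma adjusted p = 9.08e-30). Rspo1 and Rspo2 had differences of -0.41 and -0.49. Rspo4, the R-spondin of nail formation, did not pass the test (-0.07 ± 0.05).

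Axin2 was lower in tail skin. It read 7.33, 8.11 and 8.62 (lowest, median, highest) in non-anagen dorsal, 7.21, 7.79 and 8.44 in anagen dorsal and 6.31, 7.35 and 7.80 in tail skin. The tail was lower in 81 of 82 mice, and 44 of 97 tails were below every non-anagen array. The difference was -0.76 ± 0.04 (SE; limma adjusted p = 6.85e-42), which passed 2-fold only after quantile normalization among the settings tried. Fzd10os was higher by 0.52 ± 0.04, and Fzd10, on the other strand, by 0.30 ± 0.04.

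**Figure D2:**
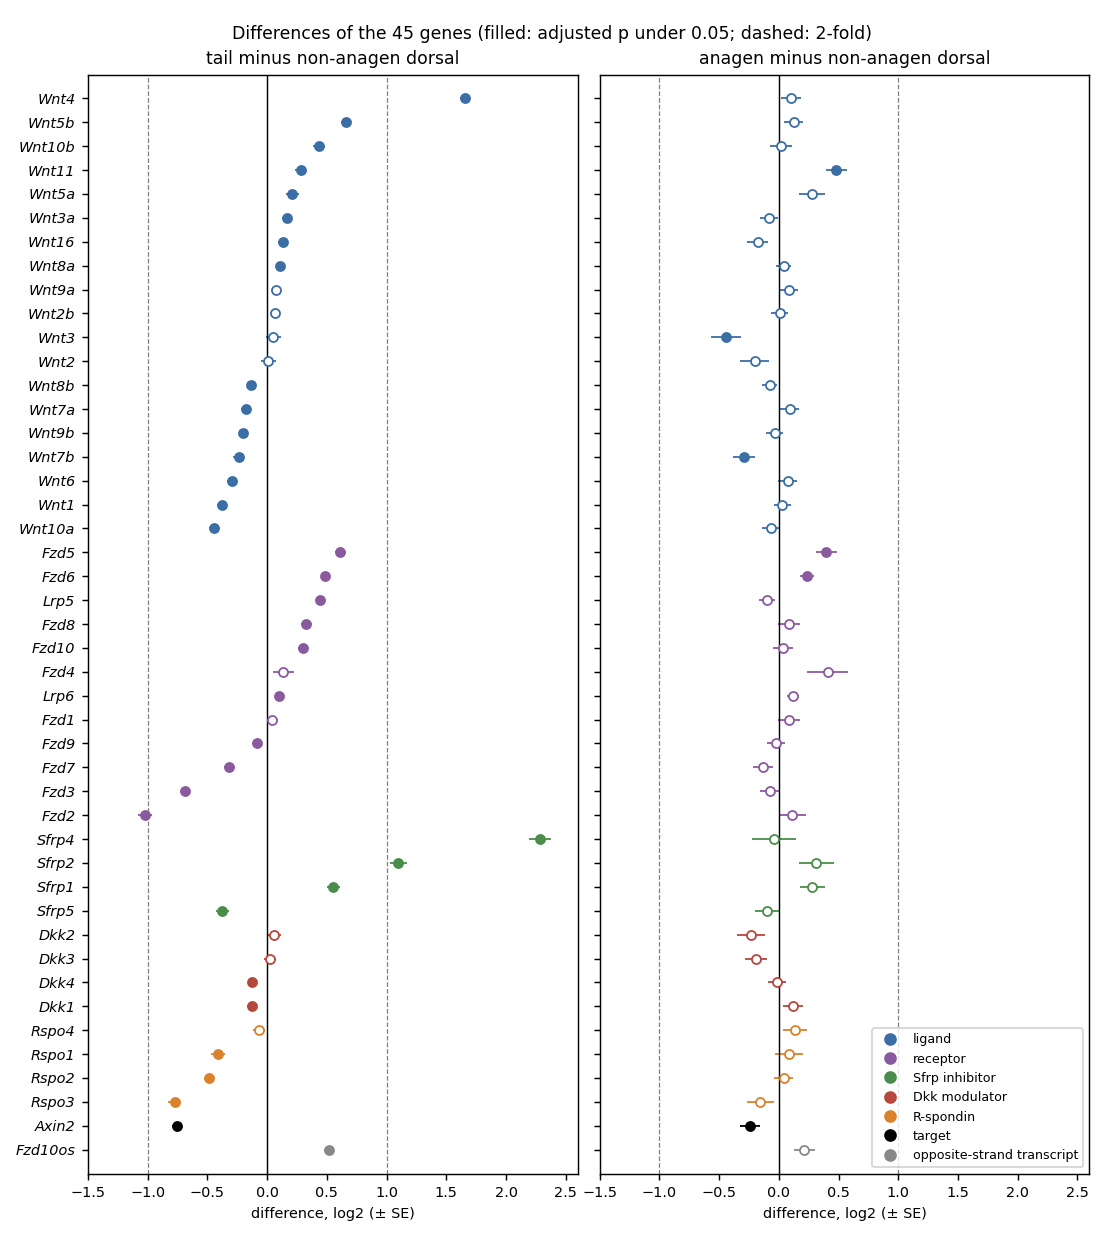
Log2 differences (± SE) of the 45 members, tail minus non-anagen dorsal skin on the left and anagen minus non-anagen dorsal skin on the right, ordered by role. Filled points passed an adjusted p of 0.05, and dashed lines mark 2-fold: 4 members pass 2-fold on the left and none on the right.

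Against anagen dorsal skin, Sfrp4, Wnt4 and Fzd2 passed 2-fold, 3 of 45 members beside 5.02% of all genes. At any size 17 members were higher in tail skin and 16 lower, beside 73.7% of genes. The split was 7 higher and 24 lower with arrays set to the same median. This comparison shares its tail arrays with the one above.

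Between anagen and non-anagen dorsal skin, the share of members called was near that of all genes. No member passed 2-fold, beside 0.685% of all genes, and 6 of 45 were called at any size, beside 12.3%. Wnt11, Fzd5 and Fzd6 were higher in anagen skin, and Wnt3, Wnt7b and Axin2 lower. Only the 3 that were higher were also called when dorsal arrays were fitted alone or when arrays were weighted by the spread of their group. The anagen arrays varied more than the others for each of these 6 members, with SDs in log2 units from 0.38 to 0.75 against 0.20 to 0.53 in non-anagen arrays, and the fit used a single spread for all groups. On simulated data this fit made more false calls than the fits with weights or with dorsal arrays alone.

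Wnt11, a ligand of cell movement that signals largely without beta-catenin, had the largest rise. Its values were 5.21, 5.66 and 6.20 (lowest, median, highest) in non-anagen and 5.31, 5.81 and 7.55 in anagen dorsal skin. Of the 14 anagen arrays, 5 were above every non-anagen array and the rest overlapped it. The difference was 0.48 ± 0.09 (SE; limma adjusted p = 1.53e-05). Fzd5 rose by 0.40 ± 0.09 (limma adjusted p = 0.000288), with 4 arrays above every non-anagen array, and Fzd6 by 0.23 ± 0.06 (limma adjusted p = 0.00206), with 5.

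Wnt3 read 6.73, 8.40 and 9.22 (lowest, median, highest) in non-anagen and 7.13, 7.73 and 9.16 in anagen dorsal skin, with 3 of 14 anagen arrays above the non-anagen median. Its difference was -0.44 ± 0.13 (limma adjusted p = 0.00891, and adjusted p = 0.0559 with dorsal arrays alone). Wnt7b, an epithelial ligand, differed by -0.29 ± 0.09 (limma adjusted p = 0.0157, and adjusted p = 0.0703 with dorsal arrays alone). Axin2 differed by -0.24 ± 0.08 (limma adjusted p = 0.0398, and adjusted p = 0.105 with dorsal arrays alone). These 3 also missed the threshold with the basal epidermis mean as a term; 2 of 5 basal epidermis markers were lower in anagen skin, and the part of the epidermis in these differences was not tested further. Without the 3 anagen arrays inside the non-anagen range of the inner root sheath mean, 7 members were higher and 5 lower, and 3789 of 18820 genes were called, against 2317 with all arrays.

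Tails of mice with anagen dorsal skin were set against tails of the other mice, and limma called 0 of 45 members and 0% of all genes, with 2 members and 372 of 18820 genes at an unadjusted p under 0.05. Tail arrays carry no hair cycle label of their own, so both tissues were grouped by the label of the mouse's dorsal skin. The difference between these mice was larger in dorsal than in tail skin for Fzd5 (by 0.53 ± 0.12, limma adjusted p = 0.00191) and Wnt11 (by 0.63 ± 0.13, limma adjusted p = 0.000169). These were 2 of 45 members, beside 3.78% of genes. Neither difference reached 2-fold, which 0.765% of genes did.

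Within the 14 anagen arrays, some members followed the inner root sheath mean, which ran from 5.81 to 11.44. These are the same arrays as in the anagen comparison above, so the slopes are not independent of its calls. Along it 4 members rose and 5 fell, 9 of 45 beside 7.91% of genes. Wnt11 rose by 0.33 ± 0.04 (SE) per unit of the mean (limma adjusted p = 1.91e-05): in the 3 arrays with the lowest mean it read 5.42, 5.46 and 5.31, and in the 3 with the highest 6.66, 7.08 and 7.55. Over 14 arrays, with sex removed, this was r = 0.94, rho = 0.96, permutation p = 1e-05 and 1e-05, and r = 0.93 without the 2 arrays farthest from the median. Fzd5 rose by 0.23 ± 0.04 (limma adjusted p = 0.0039), from 6.10, 6.11 and 6.54 in the lowest 3 arrays to 6.97, 7.71 and 7.60 in the highest 3. Rspo3 fell, with a slope of -0.24 ± 0.04 (limma adjusted p = 0.0016), from 7.34, 8.01 and 7.61 to 6.40, 6.23 and 5.95.

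Fzd2 and Sfrp1 also rose, with slopes of 0.23 and 0.21, and Wnt3 (-0.23), Wnt7b (-0.21), Axin2 (-0.15) and Wnt16 (-0.15) fell. Without the 2 arrays farthest from the median, 3 of the 9 were still called: Wnt11, Fzd5 and Rspo3. In these arrays the white adipocyte and melanocyte means correlated with the inner root sheath mean at r = 0.66 each and the basal epidermis mean at r = -0.55, and their part in the slopes was not tested.

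Across the 97 tails, 16 members rose with the inner root sheath mean and 4 fell, 20 of 45 beside 23.1% of genes. The split became 12 and 8 with arrays set to the same median. Wnt11 again had the tightest relation, rising by 0.26 ± 0.02 per unit (limma adjusted p = 4.93e-20; r = 0.80, rho = 0.86, permutation p = 1e-05 and 1e-05, and r = 0.82 without the 2 arrays farthest from the median; 1e-05 is the smallest p these permutations can give). Wnt5a rose by 0.30 ± 0.03 (limma adjusted p = 3.2e-13), Sfrp2 by 0.31 ± 0.06 (limma adjusted p = 6.03e-06) and the endothelial receptor Fzd4 by 0.24 ± 0.04 (limma adjusted p = 5.26e-07). Wnt3 and Wnt4 were among the 4 that fell, with slopes of -0.09 and -0.07. Both missed the threshold with the basal epidermis and dermal fibroblast means as terms. Dkk4 (r = -0.38, rho = -0.35, permutation p = 0.00016 and 0.00057) and Wnt16 (r = -0.37, rho = -0.38, permutation p = 0.00016 and 0.00011) also correlated negatively with the inner root sheath mean. Axin2 did not pass the test (-0.05 ± 0.03, limma adjusted p = 0.197).

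Rspo3 had opposite slopes in the 2 settings: it rose by 0.20 ± 0.03 across tails (limma adjusted p = 1.91e-07) and fell across anagen dorsal arrays. The difference between these slopes was not tested. In tails the endothelium mean correlated with the inner root sheath mean at r = 0.45 and the dermal papilla mean at r = 0.67. Smooth muscle (r = 0.49), tendon and cartilage (r = 0.45) and mitotic markers (r = 0.41) did so too, and their part was not tested.

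**Figure D3:**
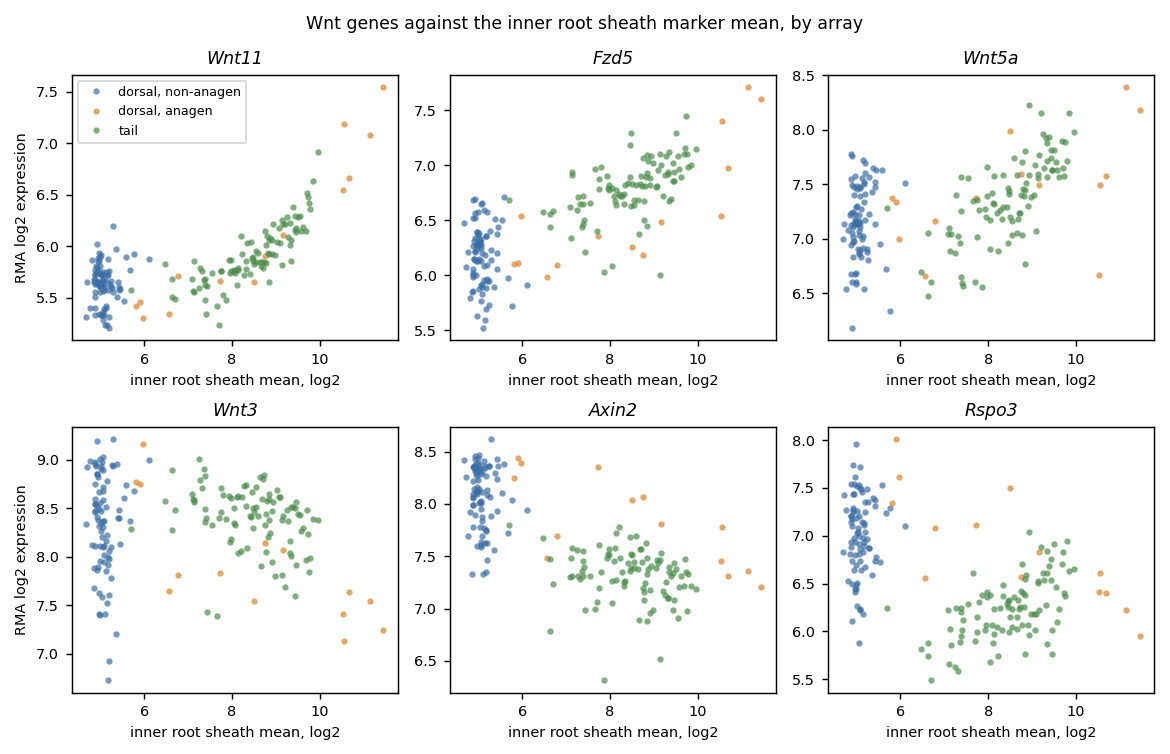
RMA log2 expression of 6 members against the inner root sheath marker mean of the same array, for non-anagen dorsal (85), anagen dorsal (14) and tail arrays (97). Wnt11 rises in anagen and tail arrays, while Rspo3 falls in anagen and rises in tail arrays.

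Among non-anagen dorsal arrays, many members followed markers of the epidermis, and others those of fat, vessels or dermal fibroblasts. Along the basal epidermis mean 23 members rose and 8 fell, 31 of 45 beside 54.5% of genes, and along the white adipocyte mean 5 rose and 18 fell, beside 29%. Fzd1 had the highest correlation with the basal epidermis mean (r = 0.82, rho = 0.77, permutation p = 1e-05 and 1e-05, and r = 0.78 without the 2 farthest arrays). Lrp5 (r = 0.79, rho = 0.79, permutation p = 1e-05 and 1e-05, and r = 0.81 without the 2 farthest arrays), Axin2 (r = 0.73, rho = 0.70, permutation p = 1e-05 and 1e-05, and r = 0.71 without the 2 farthest arrays) and Wnt3 (r = 0.73, rho = 0.71, permutation p = 1e-05 and 1e-05, and r = 0.70 without the 2 farthest arrays) followed the same mean.

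Fzd4, which with Norrin guides vessel growth, went against them. It followed the endothelium mean (r = 0.85, rho = 0.83, permutation p = 1e-05 and 1e-05, and r = 0.86 without the 2 farthest arrays) and the white adipocyte mean (r = 0.82, rho = 0.81, permutation p = 1e-05 and 1e-05, and r = 0.80 without the 2 farthest arrays). Sfrp4 also followed the white adipocyte mean (r = 0.55, rho = 0.47, permutation p = 1e-05 and 2e-05, and r = 0.54 without the 2 farthest arrays), as did Sfrp5, an inhibitor known from adipose tissue (r = 0.55, rho = 0.55, permutation p = 1e-05 and 1e-05, and r = 0.51 without the 2 farthest arrays). Sfrp5 followed the endothelium mean more closely (r = 0.65, rho = 0.64, permutation p = 1e-05 and 1e-05, and r = 0.67 without the 2 farthest arrays). In tails Sfrp5 did not follow the white adipocyte mean (r = -0.07, rho = -0.03, permutation p = 0.486 and 0.781). Rspo1 followed the dermal fibroblast mean most closely (r = 0.72, rho = 0.75, permutation p = 1e-05 and 1e-05, and r = 0.69 without the 2 farthest arrays), as did Dkk2 (r = 0.51, rho = 0.52, permutation p = 1e-05 and 1e-05, and r = 0.46 without the 2 farthest arrays). The genes and markers of an array come from the same piece of skin, so these correlations describe the arrays. The correlations were computed for 45 members with 4 marker lists in 2 groups, and the slopes were adjusted over all genes.

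In tails, 18 members rose and 3 fell along the basal epidermis mean, beside 52.5% of genes (11 and 6 without the arrays that stood apart), and 3 rose and 3 fell along the white adipocyte mean, beside 6.89%. Axin2 (r = 0.73, rho = 0.70, permutation p = 1e-05 and 1e-05, and r = 0.70 without the 2 farthest arrays) and Wnt10a (r = 0.70, rho = 0.60, permutation p = 1e-05 and 1e-05, and r = 0.66 without the 2 farthest arrays) followed the basal epidermis there too, while Fzd1 did not (r = 0.11, rho = -0.07, permutation p = 0.304 and 0.497, and r = 0.10 without the 2 farthest arrays). Wnt5a followed the endothelium mean in tails (r = 0.73, rho = 0.68, permutation p = 1e-05 and 1e-05, and r = 0.70 without the 2 farthest arrays).

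**Figure D4:**
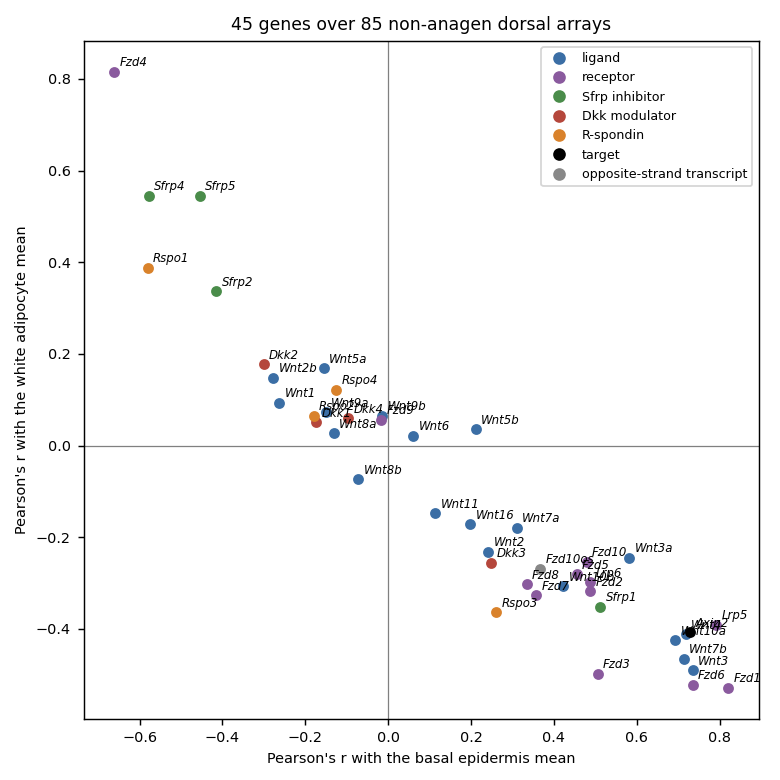
Pearson's r of each of the 45 members with the basal epidermis mean (x) and the white adipocyte mean (y) over 85 non-anagen dorsal arrays, coloured by role. Sex and batch were removed first. Fzd1, Lrp5 and Axin2 lie at the right and low, and Fzd4 alone at the upper left, with Sfrp4 and Sfrp5 below it.

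Females and males differed in 8 members in dorsal skin, beside 23% of genes, and in 1 in tail skin, beside 0.988%. In dorsal skin Sfrp2 was lower in females, with lowest, median and highest values of 4.64, 5.71 and 6.49 in 41 female and 5.33, 6.17 and 7.69 in 44 male non-anagen arrays. The female minus male difference was -0.47 ± 0.10 (SE; limma adjusted p = 9.75e-05). Fzd4 was lower in females too (-0.33 ± 0.12, limma adjusted p = 0.0292), but not past the threshold with each tissue in its own fit (adjusted p = 0.11) or without the arrays that stood apart (adjusted p = 0.0541).

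Fzd3 (0.25 ± 0.06), Wnt7b (0.20 ± 0.06), Wnt5b (0.18 ± 0.05), Wnt16 (0.16 ± 0.06), Fzd6 (0.14 ± 0.04) and Lrp6 (0.13 ± 0.04) were higher in females. Dorsal skin of males also had more dermal fibroblast signal (10.38 ± 0.50 against 9.85 ± 0.53, SD) and endothelial signal (7.61 ± 0.39 against 7.20 ± 0.54). With the basal epidermis mean as a term, 3 of the 8 were still called: Sfrp2, Fzd3 and Wnt5b.

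In tail skin Sfrp4 was higher in females. Its lowest, median and highest values were 6.49, 7.81 and 9.24 in 48 females and 5.65, 7.06 and 8.46 in 49 males, which overlap widely. The difference was 0.71 ± 0.13 (SE; limma adjusted p = 6.29e-05). White adipocyte markers were higher in female tails too (7.18 ± 0.60 against 6.65 ± 0.52, SD), and with their mean as a term the difference was 0.32 (limma adjusted p = 0.621). In tails Sfrp4 correlated with the white adipocyte mean (r = 0.59), and also with the dermal fibroblast (r = 0.52) and endothelium means (r = 0.40). The part of each cell type in the sex difference was not tested.

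The sex effect differed between tail and dorsal skin in 4 members, beside 11.2% of genes. It was more positive in tail skin for Fzd4 (by 0.64 ± 0.17, limma adjusted p = 0.006) and Sfrp4 (by 0.60 ± 0.18, limma adjusted p = 0.0181). It was more negative for Fzd3 (-0.30 ± 0.08, limma adjusted p = 0.00592) and Fzd6 (-0.18 ± 0.06, limma adjusted p = 0.0302). None of the 4 passed with the basal epidermis mean as a term, and Fzd6 did not pass without the arrays that stood apart (limma adjusted p = 0.0554).

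**Figure D5:**
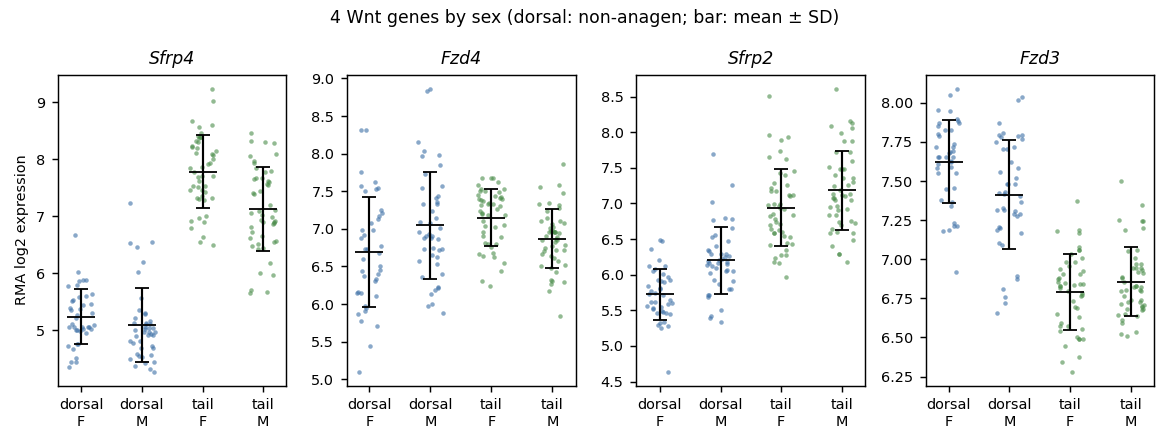
RMA log2 expression of 4 members by sex in non-anagen dorsal skin (41 females, 44 males) and tail skin (48 females, 49 males), with bars for the mean and SD. Female tails are shifted up for Sfrp4, and female dorsal arrays down for Sfrp2, with overlap in each.

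The dorsal and tail levels of a mouse were compared for each member. In 82 mice with both tissues and non-anagen dorsal skin, 0 of 45 members passed the test over all genes, beside 9.15% of genes, and 6 had an unadjusted permutation p under 0.05 for r (Wnt16, Wnt1, Axin2, Fzd8, Rspo1 and Dkk3), as did 3761 of 18820 genes by the random pairings. Wnt16 had r = 0.27, rho = 0.22, permutation p = 0.0145 and 0.047, adjusted p = 0.11 over all genes, and r = 0.18 without the 2 farthest mice. Axin2 had r = 0.25, rho = 0.24, permutation p = 0.0234 and 0.0282, adjusted p = 0.155 over all genes, and r = 0.26 without the 2 farthest mice. Dkk2 had the highest rho: r = 0.21, rho = 0.38, permutation p = 0.0535 and 0.00052, adjusted p = 0.258 over all genes, and r = 0.34 without the 2 farthest mice.

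The rest of the pathway moved in both directions between tail and non-anagen dorsal skin, where 87.1% of all genes were called. Of 26 cytoplasmic components 20 were higher and 3 lower, with Ctnnbip1, an inhibitor of beta-catenin binding to TCF, at 1.91 ± 0.04 (SE), Dact2 at 1.65 ± 0.04 and Dvl3 at 0.87 ± 0.04. Of 15 nuclear components 9 were higher and 2 lower, with the kinase Tnik at -1.76 ± 0.06, Kat2a at 0.57 ± 0.03 and Tle3 at 0.52 ± 0.03. Of 18 other receptors and cofactors 11 were higher and 4 lower, and the R-spondin receptors Lgr6 (-1.02 ± 0.06) and Lgr5 (-0.90 ± 0.08), markers of follicle stem cells, were lower, while the third, Lgr4, was higher by 0.45 ± 0.04. Gpc3 was higher by 0.81 ± 0.07.

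Of 10 other secreted antagonists 4 were higher and 5 lower, with Wif1, which binds Wnt ligands, at 1.07 ± 0.07, Apcdd1 at -0.96 ± 0.04 and Igfbp4 at 0.89 ± 0.06. Of 12 planar polarity genes 9 were higher and 2 lower, led by Celsr2 (1.08 ± 0.05), Scrib (0.76 ± 0.03) and Daam1 (0.76 ± 0.03). Of 4 genes of ligand secretion and turnover, Porcn was higher (0.77 ± 0.09) and Notum (-0.86 ± 0.06) and Trabd2b (-0.80 ± 0.05) lower. Of 20 textbook targets 13 were higher and 7 lower. The 3 largest were the hair matrix regulators Foxn1 (2.44 ± 0.06), Hoxc13 (2.36 ± 0.06) and Dlx3 (1.80 ± 0.07), opposite in sign to Axin2. Some targets are named above under other lists. Of these, Apcdd1, Lgr5 and Notum were among the 7 lower, with the sign of Axin2, and Wif1 was among the 13 higher. Hair shaft keratins averaged 5.40 in non-anagen dorsal and 10.06 in tail skin, and their part in these targets was not tested.

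The same lists were counted in anagen against non-anagen dorsal skin, where 12.3% of all genes were called. Dlx3 (1.01 ± 0.14), Hoxc13 (0.92 ± 0.13) and Msx2 (0.86 ± 0.15) led 4 higher and 2 lower of 20 targets. Of the cytoplasmic genes 3 were higher and 1 lower, with Csnk1e (0.32 ± 0.05), Csnk1g3 (0.24 ± 0.06) and beta-catenin itself, Ctnnb1 (0.21 ± 0.04). Among receptors and cofactors 3 were higher and 2 lower, with Lgr6 at -0.44 ± 0.11, Gpc3 at 0.41 ± 0.14 and Lrp4 at -0.40 ± 0.10. Tle3 was the 1 nuclear gene called (0.23 ± 0.05), with Lef1 (0.44 ± 0.16) and Tcf7l1 (0.24 ± 0.11) short of the threshold. Dkkl1 was the 1 antagonist called (-0.42 ± 0.11), beside Igfbp4 (0.29 ± 0.12) and Wif1 (0.24 ± 0.14), which were not. Notum fell (-0.36 ± 0.10), while Porcn (0.11 ± 0.17) and Wls (-0.05 ± 0.04) did not pass. Of the planar polarity genes Prickle1 rose (0.27 ± 0.08) and Daam1 fell (-0.19 ± 0.06), and Invs did not pass (-0.16 ± 0.08).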

How the data were processed

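The deposited values are log2 expression from RMA, per the submitters' processing notes; the version, and whether any step followed, is not given in the sources used here. Of 35556 probe sets, 21218 named 1 gene in the platform annotation, 1881 several and 12457 none. The probe set with the highest mean was kept per gene, giving 18820 genes with no filter on low values.

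Group differences come from limma (version 3.58.1, R 4.3.3; lmFit and eBayes; Benjamini-Hochberg over all genes) on all arrays, with sex as a covariate, between tail and dorsal skin. The hair cycle and sex fits left out the tail of the 1 mouse without dorsal skin, with batch within tissue as a term. Slopes were fitted on the mean of a marker list. Correlations of members, with marker means or between tissues, were computed after removing sex and, where it varied, batch. Those between marker means were not adjusted. Permutation p-values are two-sided, from 100000 permutations in Python 3.11.15. The number of arrays limits the precision.

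The mouse number pairs the tissues, since both come from the same animal. Over 82 mice the median correlation of a tail's deviations with its own mouse's dorsal deviations was 0.17, against -0.0007 for other mice. Without such a block, p-values treat the tissues as independent.

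The members, gene lists and tests were chosen with earlier results of these data known. Values are named for members past 2-fold between groups, the 2 others of highest mean in each role, up to 5 called per sex or slope fit, and Axin2; Wnt7b, Fzd5, Fzd6 and others called in anagen skin, Fzd1, Lrp5, Wnt10b, Sfrp5, Rspo2, Rspo4 and the genes of the marker correlations were added after their values were seen, as were the slopes on the basal epidermis and white adipocyte means. The fits were tested on simulated data, where false calls were most frequent for the anagen comparison and fewer with arrays weighted by group.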

Additional observations from a re-analysis of the deposited data

Results flagged for a closer look

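The female minus male difference was not the same in tail and dorsal skin for 4 members, by limma's test of the difference itself, beside 11.2% of all genes; none of the 4 passed with the basal epidermis mean as a term. The tail minus dorsal value was 0.64 for Fzd4, 0.60 for Sfrp4, -0.30 for Fzd3 and -0.18 for Fzd6. Mice with anagen and non-anagen dorsal skin differed more in dorsal than in tail skin for Fzd5, by 0.53, and Wnt11, by 0.63. These were 2 members, beside 3.78% of all genes.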

How the results depend on the processing

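The counts of members called kept their size, within 1.5 times, in most settings. They moved in these: with only genes above the median mean, 19 members were called at any size between tail and non-anagen and 19 between tail and anagen dorsal skin, since fewer members were tested (24 of 45). Between anagen and non-anagen dorsal skin 3 were called with arrays weighted by group, 3 with dorsal arrays alone and 12 without the 3 anagen arrays inside the non-anagen range. By sex, 5 were called in dorsal skin and 0 for the difference between tissues with the basal epidermis mean as a term, and in tail skin 2 with each tissue in its own fit and 0 with the white adipocyte mean as a term. Across anagen arrays 3 slopes were called without the 2 farthest arrays. Except for the first, and fitting dorsal arrays alone or without the 2 farthest, these settings were chosen after seeing the data. Directions were checked only for the members named by the rule above or called in anagen skin, which leaves out Wnt3a, Wnt16 and Wnt8a. Among those checked, Lrp6 turned between tail and non-anagen dorsal skin (-0.10 with arrays set to the same median, -0.13 after quantile normalization). Wnt5a turned there too (-0.032 after quantile normalization), and Dkk3 between tail and anagen dorsal skin (-0.026 after quantile normalization). Apart from the scaling itself the cause was not tested. Mouse as a random block changed no call of a named member. In the paired differences within each mouse, 4 members passed 2-fold against non-anagen and 3 against anagen dorsal skin, and at any size 36 and 24 were called, against 36 and 33 without pairing; Dkk2, Dkk3, Fzd5, Sfrp1 and Sfrp5 lost their call against anagen dorsal skin (adjusted p from 0.075 to 0.445). Without the arrays that stood apart, calls were also lost for Wnt11 between tail and anagen dorsal skin (adjusted p = 0.068), for the slope of Sfrp1 on the inner root sheath mean in tails (0.0543), and for slopes on other marker means: basal epidermis in tails for Fzd5, Fzd10os, Sfrp1 and Wnt5b and in dorsal skin for Dkk3, and white adipocyte in dorsal skin for Fzd5 and Fzd10os. Low signal limits members such as Wnt1 and Wnt8b; 21 of the 45 lay below the median gene mean in every group, and the 14 anagen arrays limit the hair cycle comparison.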
